A study of Arabidopsis thaliana with 12 samples.

Results

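In replicate 1 of Col-0, of Ws and of the heat shock factor mutant QK, 16 probe sets, each paired with exactly 1 nuclear gene, were brighter after heat. They were 16 of 18465 probe sets in the table, 10396 of which have exactly 1 gene in the annotation used. They were chosen on replicate 1: the heat response, log2(signal + 16) at heat minus the same at control, was at least 1.5 in each of the 3 lines. Organelle-genome genes, the HSP and HSC70 chaperone genes and a few of their partners were left out by name. The 16 fell into 2 kinds. A majority, 10, are loci on chromosome 2 numbered between AT2G07674 and AT2G07751, and 6 lie elsewhere in the nuclear genome: AT1G72800, AT1G75860, AT2G42270, AT4G27652, AT4G27657 and AT4G36010.

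RNA levels came from 12 Affymetrix arrays of Arabidopsis thaliana seedlings, 2 for each of 6 groups. All seedlings had grown for 7 days at 22 °C on plates with MS salts at 0.5 strength and 1% sucrose. Control groups of Col-0, Ws and QK were taken from there, and the heat groups of the same lines after 1 h at 37 °C. Col-0 and Ws are natural accessions. The labels call QK a mutant and no more. From the literature it is known to lack 4 heat shock factors of class A1 and to carry alleles from both accessions, so neither accession alone is its exact wild type.

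Class A1 heat shock factors are the transcription factors that switch on the classical heat shock genes, such as the small heat shock proteins, by binding heat shock elements in their promoters. Genes that still respond without them are of interest because plants sense heat by more than this route. Mitochondria have a genome of their own that encodes subunits of the respiratory chain and the ATP synthase. In Arabidopsis a long copy of mitochondrial DNA is also inserted in chromosome 2, near its centromere. The sequences are nearly identical, so a probe for a locus in that insertion can also bind RNA made in mitochondria.

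Median signals of the arrays were 75.6 to 87.3, and 2 arrays per group limit the precision of every value. The mutated genes themselves could not be checked, since 0 of the 4 class A1 factors had a probe set with exactly 1 gene. RCA, rubisco activase of green tissue, was at 8543.4 to 14175.2 in the 12 arrays, and PYK10, a root and hypocotyl glucosidase, at 1405.8 to 6853.9. PYK10 was called higher in QK than in Ws after heat (log2 1.15, limma adjusted p = 0.0250), whereas the other measured root marker, EXP7, gave log2 0.25 (adjusted p = 0.764), and their part in the results below was not tested. Markers of seed and flower had 0 probe sets with exactly 1 gene. In the pair labelled Col-0 replicate 2, all 16 members were brighter at the label control than at the label heat, against 45.9% of the 13631 probe sets tested. Heat minus control there was log2 -4.98 to -1.35. In the replicate 1 pairs the choice fixed it above 0. In the replicate 2 pairs of Ws and QK only AT4G27652 in QK was below 0. Labels were kept, and the tests below use the 8 arrays of Ws and QK. Replicates are separate biological samples by the labels.

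Of the 6 genes outside the chromosome 2 group, AT1G72800 kept its response in QK most evenly. Its signal was 76.9 and 57.7 in the Ws control arrays (replicates 1 and 2) and 435.1 and 361.3 after heat. In QK it went from 102.7 and 72.1 to 605.6 and 449.0. Every heat array of both lines was above every control array, and both QK heat arrays were above both Ws heat arrays. In Col-0 it was 92.4 at control and 290.9 at heat in replicate 1, while the pair labelled replicate 2 gave 245.2 for control and 70.5 for heat.

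AT4G36010, of the thaumatin family of pathogenesis-related proteins, had control signals of 108.7 and 34.2 in Ws and 120.8 and 103.3 in QK. After heat it stood at 1061.1 and 747.3 in Ws and at 441.5 and 768.9 in QK. The heat arrays of both lines were thus several times brighter than their controls and overlapped between the lines. Col-0 gave 139.6 and 993.1 in replicate 1, and 433.7 (control) and 44.2 (heat) in the pair labelled replicate 2.

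AT1G75860, for which no role is given here, went from 184.4 and 82.6 to 1395.5 and 886.6 in Ws and from 198.4 and 150.2 to 829.4 and 557.8 in QK. Its Ws and QK heat arrays did not overlap, with both Ws values above both QK values. In Col-0 it was 201.8 and 913.6 in replicate 1, and 417.5 (control) and 99.1 (heat) in the pair labelled replicate 2. AT2G42270, a helicase of the U5 small nuclear ribonucleoprotein of the spliceosome, went from 43.6 and 55.8 to 384.9 and 275.5 in Ws. In QK it went from 32.2 and 49.0 to 123.7 and 212.4, again below both Ws heat arrays. Col-0 gave 43.2 and 209.2 in replicate 1, and 129.2 and 41.1 in the pair labelled replicate 2.

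The other two, AT4G27652 and AT4G27657, are short genes near each other on chromosome 4, with no role given here. In QK control replicate 2 they were already near their heat level. AT4G27652 was at 68.9 and 44.5 in the Ws control arrays and at 576.9 and 479.5 in the Ws heat arrays. In QK it was at 142.3 and 487.0 at control and at 704.7 and 426.2 at heat, so that the groups overlap. Col-0 gave 121.0 and 379.0 in replicate 1, and 501.6 (control) and 70.3 (heat) in the pair labelled replicate 2.

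AT4G27657 had 39.0 and 25.3 in the Ws control arrays and 1509.6 and 1604.0 in the Ws heat arrays. QK had 63.5 and 354.0 at control and 339.2 and 454.2 at heat. The QK response that met the limit in replicate 1 did not meet it in replicate 2, where the control array itself was high, and both QK heat arrays were below both Ws heat arrays. Col-0 gave 37.4 and 1151.0 in replicate 1, and 1332.0 and 53.1 in the pair labelled replicate 2.

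**Figure D1:**
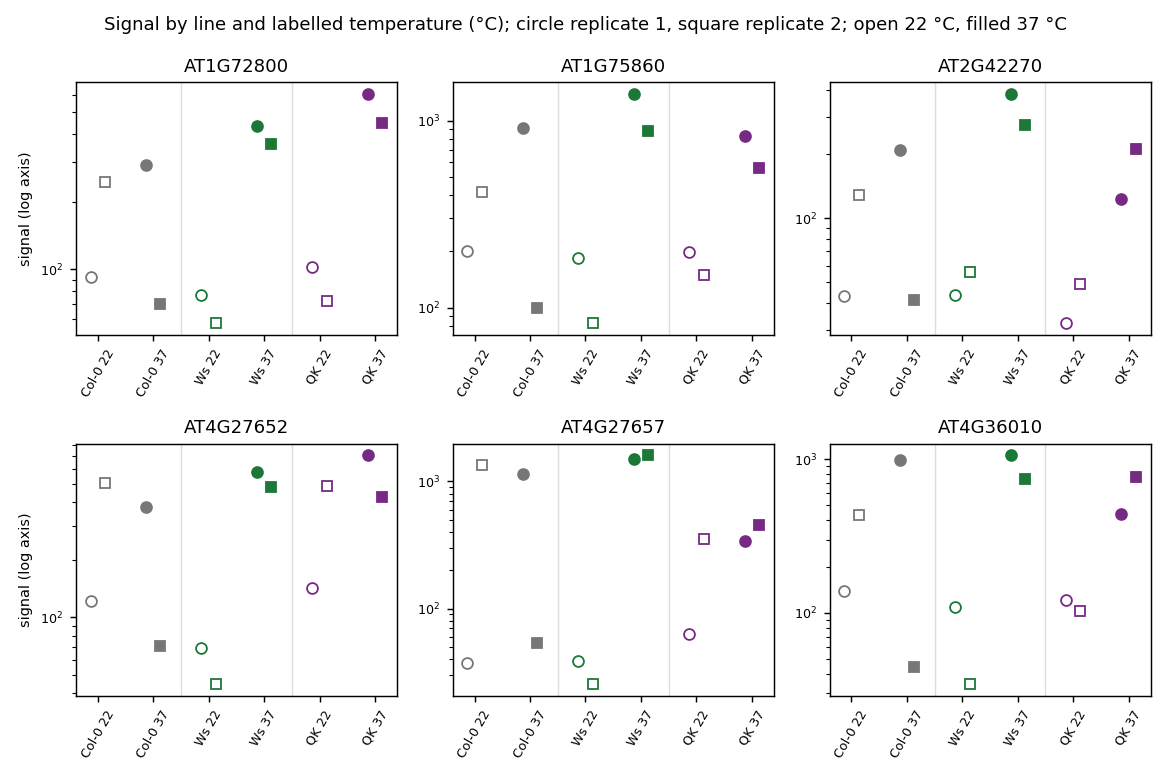
Signal (log axis) of the 6 members outside the chromosome 2 group in each of the 12 arrays, by line and labelled temperature. Circles are replicate 1 and squares replicate 2, open at 22 °C and filled at 37 °C. The open QK square of AT4G27652 (487.0) and of AT4G27657 (354.0) lies among the heat values of QK, and the squares of Col-0 run against their labels in every panel.

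On the reference order of chromosome 4, PEL1 is followed by AT4G27652, AT4G27654, AT4G27657, AT4G27660, HSP21 and AT4G27680. HSP21, the small heat shock protein of chloroplasts, has no single-gene probe set here. AT4G27654 lies between the pair of members. It had 23.9 and 238.7 at control and 55.2 and 35.4 at heat in QK, and 14.8 to 25.3 in the 4 Ws arrays. Of the Ws and QK arrays, QK control replicate 2 stood highest for AT4G27654, which was not so for either member. AT4G27680 showed a response of log2 2.31 and 2.28 in Ws and of 0.21 and 0.34 in QK. PEL1 and AT4G27660 responded by at most log2 0.54 in any pair of Ws or QK arrays.

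Among all probe sets tested, 1.83% were higher in QK control replicate 2 than in replicate 1 by at least log2 1.5, and 2 of the 16 members were. ZAT10, an early stress-response zinc finger factor, had 244.4 and 1140.1 in the same QK control arrays, and 239.5 and 92.6 in those of Ws. The other 2 measured factors of its list differed less between the QK control arrays, with 21.9 and 65.8 for WRKY53 and 86.6 and 107.7 for WRKY6. Whether this array received a stimulus was not tested.

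The 10 chromosome 2 members were brighter after heat than at control in all 5 pairs other than that labelled Col-0 replicate 2. The choice fixed this in the replicate 1 pairs, so only the replicate 2 pairs of Ws and QK bear on it. AT2G07722 showed the widest change. It had 17.5 and 12.2 in the Ws control arrays, 741.7 and 769.9 in the Ws heat arrays, 14.5 and 11.4 in the QK control arrays and 567.3 and 1024.3 in the QK heat arrays. Its control signals are so low that the 16 added to them sets much of the log2 change. In Col-0 it had 19.8 and 773.8 in replicate 1, and 914.6 (control) and 13.4 (heat) in the pair labelled replicate 2.

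AT2G07741 is known as a copy of the gene for subunit a of the ATP synthase membrane part, and AT2G07707 as one for its subunit 8. AT2G07741 went from 54.1 and 40.3 to 1008.3 and 724.5 in Ws and from 54.4 and 30.8 to 1138.0 and 1250.3 in QK. AT2G07707 went from 100.1 and 63.6 to 991.8 and 1123.3 in Ws and from 54.9 and 25.2 to 934.9 and 898.3 in QK. Heated QK lay above heated Ws for AT2G07741 and below it for AT2G07707, and control and heat groups did not overlap. In replicate 1 of Col-0 AT2G07741 had 63.6 and 1158.9, and AT2G07707 had 64.3 and 820.9. The pair labelled replicate 2, control first, gave 1015.0 and 38.4 for AT2G07741 and 844.1 and 44.4 for AT2G07707.

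AT2G07751, known as a copy of the gene for subunit 3 of NADH dehydrogenase, had a higher start: 87.1 and 152.3 in the Ws control arrays and 78.2 and 132.7 in those of QK. After heat it had 442.6 and 491.8 in Ws and 539.7 and 660.5 in QK. Replicate 2 lay above replicate 1 in each of these 4 groups. In Col-0 it had 84.6 and 519.7 in replicate 1, and 617.5 and 145.7 in the pair labelled replicate 2.

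Among the chromosome 2 members, 5 had both QK heat arrays above both Ws heat arrays: AT2G07678, AT2G07719, AT2G07741, AT2G07749 and AT2G07751. Over all 16 members this held for 6, against 25.6% of all probe sets, and the reverse for 4, against 20.0%. AT2G07749 had 78.9 and 100.2 in heated Ws and 165.6 and 152.4 in heated QK, after 9.8 and 8.8 in the Ws control arrays and 8.6 and 8.2 in the QK ones. AT2G07719 had 131.9 and 170.0 in heated Ws and 314.5 and 254.2 in heated QK, after 14.1 and 19.1 in the Ws control arrays and 15.4 and 15.8 in the QK ones. For both genes the signals of the lines were close at control and did not overlap after heat. Neither gene was called in the tests of QK against Ws given further on. AT2G07678 had 165.3 and 163.9 in heated Ws and 189.9 and 213.2 in heated QK, with 8.6 to 10.5 in the 4 control arrays.

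In AT2G07674, AT2G07705, AT2G07708 and AT2G07722 the heat arrays of the lines overlapped. AT2G07674 had 101.6 and 191.3 in heated Ws and 135.8 and 341.2 in heated QK, with 23.5 to 38.0 in the 4 control arrays. AT2G07705 had 176.0 and 191.3 in heated Ws and 177.4 and 237.3 in heated QK, with 10.1 to 11.8 in the control arrays. AT2G07708 had 143.9 and 256.1 in heated Ws and 169.3 and 231.8 in heated QK, with 13.2 to 21.1 in the control arrays. In all 4 genes every heat array was thus above every control array. They came nearest in AT2G07674, with 101.6 in Ws heat replicate 1 and 38.0 in Ws control replicate 2. Over the 16 members, all 4 heat arrays of Ws and QK were above all 4 control arrays in 14, against 7.5% of all probe sets, and both QK heat arrays were above both QK control arrays in 14, against 23.5%. The choice on replicate 1 fixes part of both counts, and nothing is read from them.

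**Figure D2:**
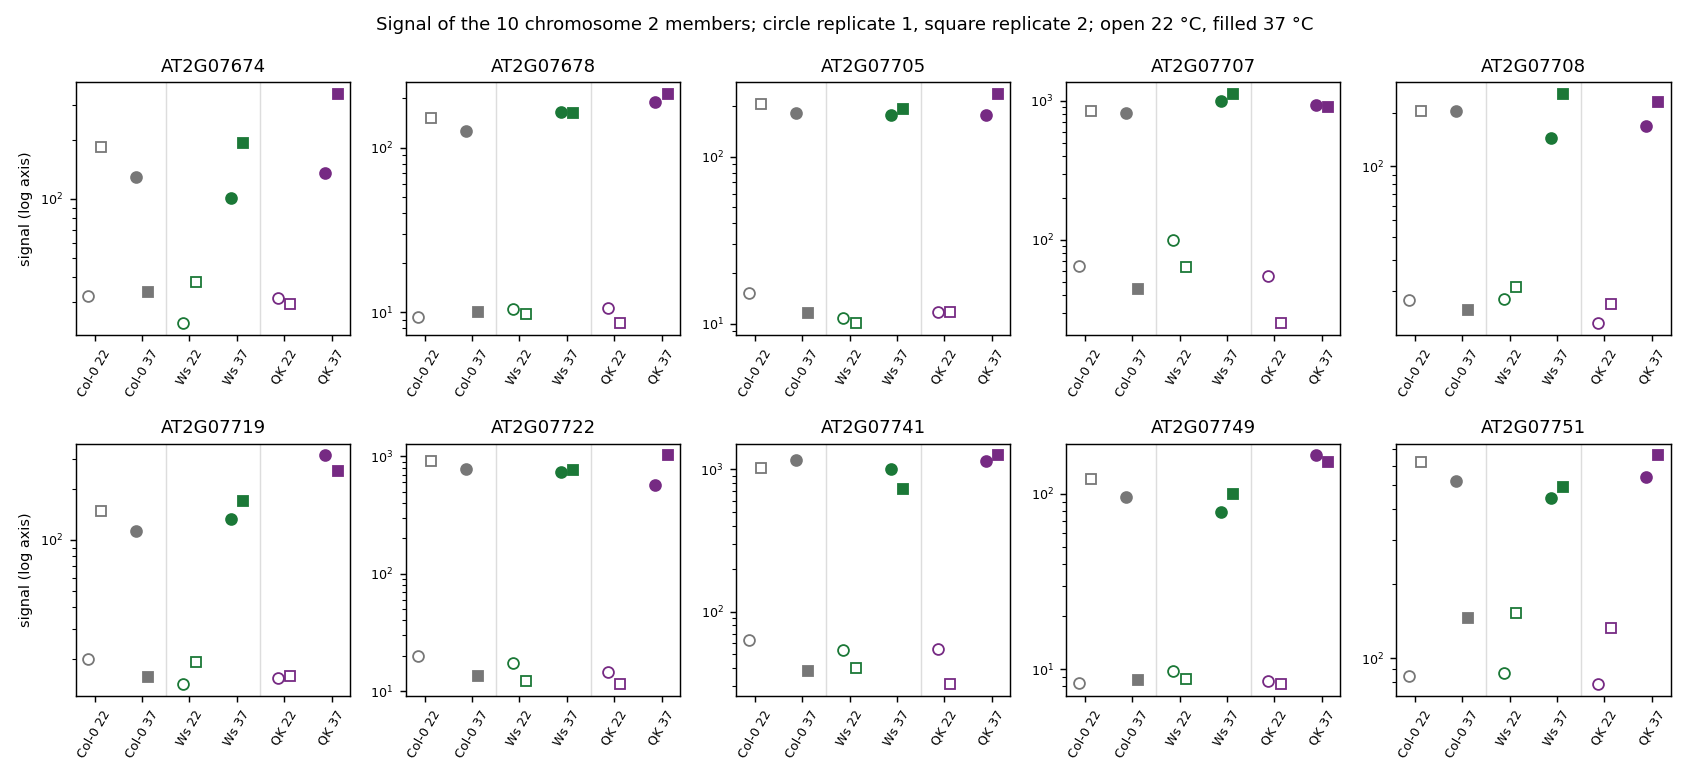
Signal (log axis) of the 10 chromosome 2 members in each of the 12 arrays, drawn as in the plot of the other 6 members. In every panel the filled Ws and QK symbols lie above the open ones, and heated QK reaches up to 1250.3 (AT2G07741).

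These 10 loci share their place in the genome. In the annotation, 20 probe sets list a nuclear together with an organelle gene, and the 11 chromosome 2 loci named there run from AT2G07671 to AT2G07734 across 140 annotated genes. In that stretch lie 8 of the 10 members. AT2G07749 lies 4 genes before it and AT2G07741 31 genes after it. Of these 10 probe sets, 8 carry the suffix _s_at, which Affymetrix gives to probe sets that match several similar transcripts, against 0 of the other 6. How much of their signal comes from the nuclear copy and how much from the mitochondrial genome cannot be told apart on these arrays.

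The stretch holds 17 single-gene probe sets, the 8 members and 9 more. Over these 9 the replicate 2 response was log2 0.10 to 2.26 in Ws and 0.17 to 2.70 in QK, and at least 1.5 in both lines in 4. Of the 9, 6 passed the filter on dim probe sets, which heat arrays alone can meet. Those 6 had log2 0.90 to 2.26 in Ws and 1.95 to 2.70 in QK, and include the 4. Of the 3 dim ones, AT2G07693 responded by 1.04 in Ws and 1.42 in QK, and AT2G07724 by 0.10 and 0.35. AT2G07692 responded by 0.21 and 0.17, and had 7.9 to 16.1 in the 12 arrays.

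**Figure D3:**
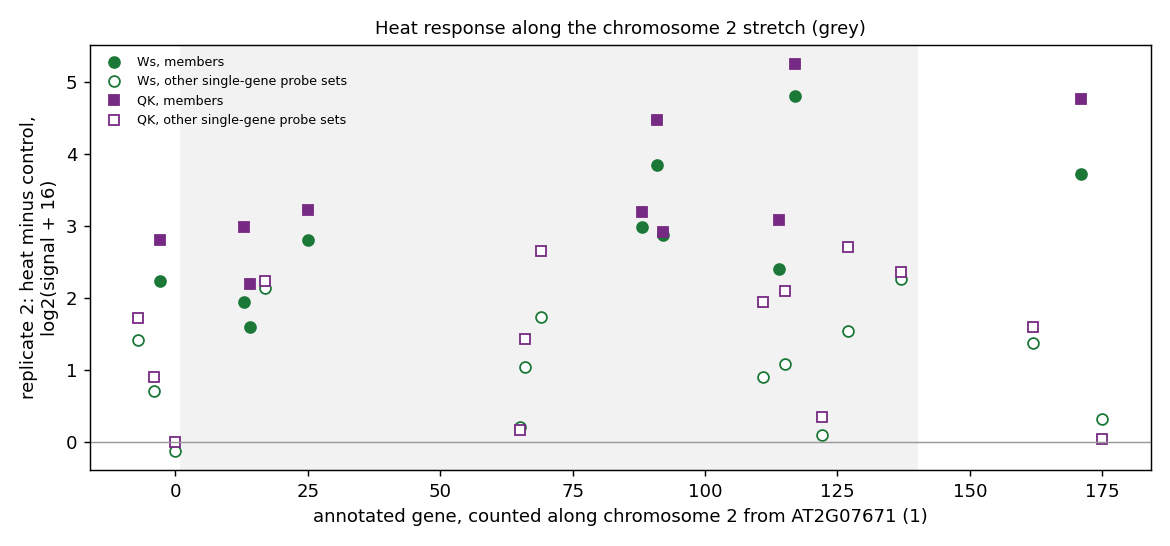
Replicate 2 heat response, log2(signal + 16) at heat minus control, against gene order along chromosome 2, counted from AT2G07671 as 1, for Ws (circles) and QK (squares). Filled symbols are members and grey marks the 140 genes of the stretch. Members lie between log2 1.59 and 5.25, and probe sets near 0 occur inside and outside the stretch.

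Replicate 2 of Ws and QK was not used for the choice and serves as the check. There the response was at least log2 1.5 in both lines for 14 of the 16 members, against 0.792% of the 13631 probe sets tested. In Ws alone it was 16 of 16, against 2.77%, and in QK alone 14 of 16, against 1.78%. The chromosome 2 group held 10 of these 14, and AT1G72800, AT1G75860, AT2G42270 and AT4G36010 were the rest. Those 10 loci may share 1 source of RNA, so the member counts here and in the replicate 2 test below are not counts of independent genes. The median response of the members was log2 2.93 in Ws and 2.86 in QK, and over all probe sets tested it was -0.05 and 0.01. It was lowest in QK for AT4G27652 (-0.19) and AT4G27657 (0.35), which in Ws responded by 3.03 and 5.29.

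Within the chromosome 2 group the replicate 2 response ran from log2 1.59 (AT2G07751) to 4.80 (AT2G07722) in Ws and from 2.19 to 5.25, for the same genes, in QK. As a fold of the signal plus 16, AT2G07722 rose 27.9-fold in Ws and 38.0-fold in QK between single arrays. In the group of 6, AT4G36010 gave 15.2-fold and 6.58-fold, AT1G75860 9.15-fold and 3.45-fold, AT1G72800 5.12-fold and 5.28-fold, and AT2G42270 4.06-fold and 3.51-fold in Ws and QK. AT1G72800 and the chromosome 2 group thus responded in QK at least as much as in Ws in this replicate, and the other 5 genes less.

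**Figure D4:**
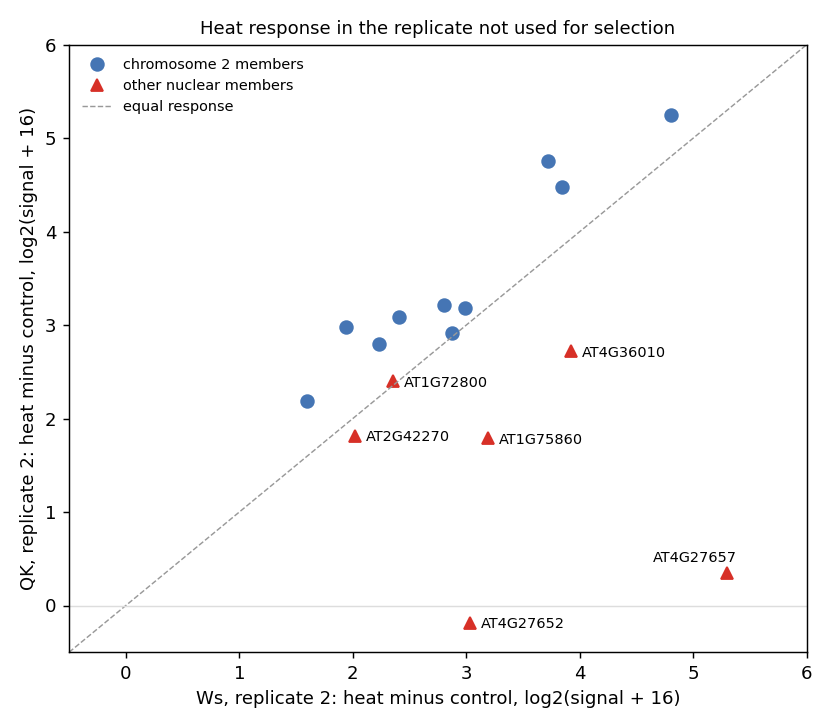
Replicate 2 heat response, log2(signal + 16) at heat minus control, in QK against Ws for the 16 members, each point from 1 pair of arrays per line. All 10 chromosome 2 members lie above the dashed line of equal response, while AT4G27652 (3.03 in Ws, -0.19 in QK) and AT4G27657 (5.29, 0.35) lie far below it.

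The heat effect common to Ws and QK was tested with limma on the 4 replicate 2 arrays, with terms for line and temperature. This fit has 1 residual degree of freedom, and a gene whose lines respond unequally gets a large error. A call needed a Benjamini-Hochberg adjusted p under 0.05 over all 13631 probe sets and a change of at least 2-fold. By this rule 6 of 16 members were called higher, and 0.205% of all probe sets. They were AT2G07722 (log2 5.02, SE 0.17), AT2G07707 (4.16, SE 0.21), AT2G07705 (3.09, SE 0.14), AT2G07708 (2.90, SE 0.13), AT2G07678 (3.01, SE 0.17) and AT1G72800 (2.38, SE 0.13). Their adjusted p was 0.0435 for the first 4 genes and 0.0492 for the last 2, close to the threshold.

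The estimate was positive for 16 of 16 members, against 48.6% of all probe sets, and the unadjusted limma p was under 0.05 for 14 of 16, against 8.21% of all probe sets in the upward direction. AT2G07741 (log2 4.24, adjusted p = 0.0568), AT4G36010 (3.32, adjusted p = 0.0654) and AT2G42270 (1.92, adjusted p = 0.0568) missed the threshold. AT4G27652 gave log2 1.42 (SE 0.85, adjusted p = 0.346) and AT4G27657 log2 2.82 (SE 1.3, adjusted p = 0.262). The call ended for all 6 genes when arrays were centred on the 75th percentile, when 64 was added in place of 16, and when the pair labelled Col-0 replicate 2 entered as labelled (0 called each time). AT1G72800 and AT2G07678 also missed the threshold with no filter (adjusted p = 0.0542 for both) and with a filter at the 50th percentile (adjusted p = 0.0532 and adjusted p = 0.0631), and AT2G07678 with no mean trend (adjusted p = 0.0505).

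The response of QK minus that of Ws was estimated with limma on the 8 arrays of both lines. The choice bears on it: it used the replicate 1 arrays and kept only genes with a QK response of at least log2 1.5 there, so genes that lost the response in QK were removed beforehand. Of the members 0 of 16 were called, with 4 at an unadjusted p under 0.05. Over all probe sets the shares were 1.34% and 6.56%, and nothing is read from the members' counts against them. The levels at control and at heat, given further on, share the same replicate 1 arrays. With the replicate number as a block again 0 members were called, while the calls over all probe sets went from 183 to 370. The lowest value was that of AT4G27657, with log2 -3.79 (SE 0.93, adjusted p = 0.219), followed by AT4G27652 with -1.92 (SE 0.78, adjusted p = 0.73). Both depend on the QK control arrays. Without replicate 2, the high one, AT4G27657 was at log2 -2.68 (limma adjusted p = 0.075) and AT4G27652 at -1.08 (adjusted p = 0.801). Without replicate 1, AT4G27657 was called at -4.90 (adjusted p = 0.0214) and AT4G27652 was at -2.75 (adjusted p = 0.145). Either omission leaves 1 QK control array, which is assumed to vary like the other groups. AT4G36010 gave -1.29 (SE 0.67), AT1G75860 -1.12 (SE 0.59) and AT2G42270 -0.71 (SE 0.43), and AT1G72800 gave 0.08 (SE 0.35).

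All 10 chromosome 2 members had a value above 0, from log2 0.08 (AT2G07705) to 0.89 (AT2G07719, SE 0.26, adjusted p = 0.346), with a median of 0.54. The median over all probe sets tested was 0.04, and 56.5% of them had a value above 0. AT2G07749 gave 0.79 (SE 0.21, adjusted p = 0.281). By replicate, 8 of the 10 were above 0 in replicate 1 and 10 of 10 in replicate 2. These loci may share 1 source of RNA, so they are not 10 independent observations. Values above 0 were also common in related probe sets outside the members. All 6 tested non-members of the stretch were above 0 (median 0.60). Of probe sets that met the same replicate 1 limit, so were 12 of 14 from organelle genomes (median 0.44) and 11 of 12 with several genes (0.56). Of those without a gene in the annotation, 14 of 24 were (0.22).

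**Figure D5:**
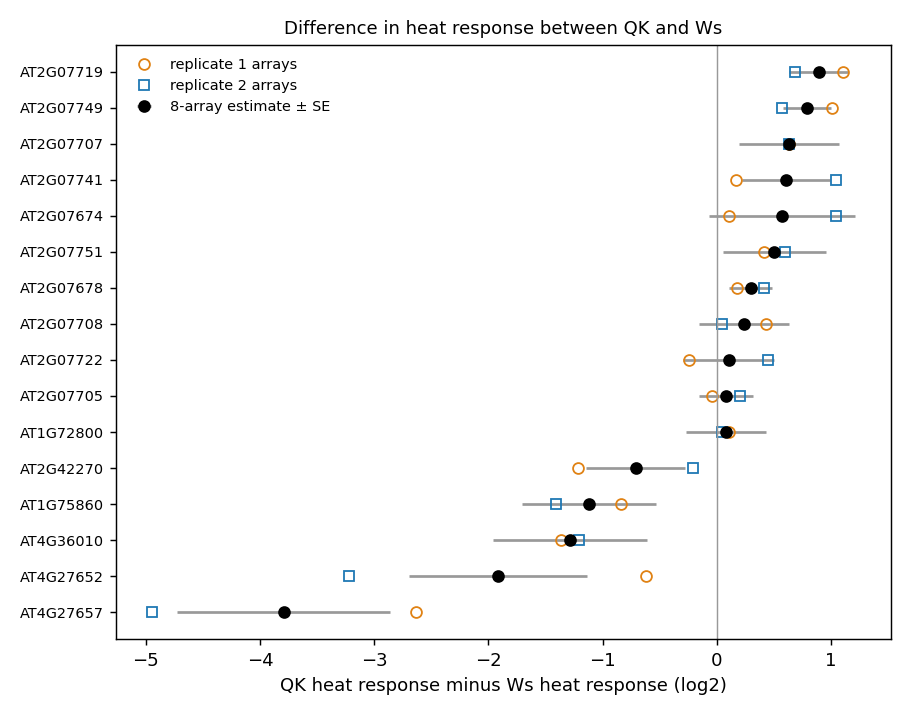
QK heat response minus Ws heat response (log2) for each of the 16 members. Filled points with bars are the 8-array limma estimate ± SE, and open circles and squares the same difference in replicates 1 and 2 alone. AT4G27657 (-3.79) and AT4G27652 (-1.92) lie lowest with wide gaps between replicates, and the chromosome 2 members lie between 0.08 and 0.89.

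No member was called as different between QK and Ws before heat. At control 0 of 16 were called by limma, with 3 at an unadjusted p under 0.05, against 0.183% of all probe sets called and 6.85% at that unadjusted p. The block gave 0 members and 106 probe sets in place of 25. The members furthest apart were AT4G27652 (log2 1.98 higher in QK, SE 0.55, adjusted p = 0.467) and AT4G27657 (1.85, SE 0.66, adjusted p = 0.67). Both rest on QK control replicate 2. Without it AT4G27652 was 1.14 and AT4G27657 0.74 higher, and without QK control replicate 1 AT4G27657 was called at 2.96 (adjusted p = 0.0245). That call sets the single, high replicate 2 array against Ws, with a spread borrowed from the other groups. AT2G07707 was at log2 -0.83 (SE 0.31, adjusted p = 0.691), lower in QK.

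After heat 0 of 16 were called by limma, with 4 at an unadjusted p under 0.05, against 4.66% of all probe sets called and 17.3% at that unadjusted p. The block gave 0 members and 980 probe sets in place of 635. AT2G07749 was higher in QK by log2 0.74 (SE 0.15, adjusted p = 0.0438), which passes on p and not on the 2-fold limit. On p alone, at any fold, 5.35% of probe sets passed. AT2G07719 was higher by 0.85 (SE 0.18, adjusted p = 0.0559). AT4G27657 gave log2 -1.94 (SE 0.66, adjusted p = 0.194) and AT2G42270 -0.94 (SE 0.30, adjusted p = 0.177), both lower in QK. AT4G27657 was called here when either QK control array was left out (adjusted p = 0.0132 and adjusted p = 0.0128), which changes the error and not the estimate.

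The same values as the members' were reached by 66 probe sets in all, 0.357% of the table. Of these, 14 belong to organelle genomes, 12 list several genes, and 24 have no gene in the annotation, so that these 24 could not be sorted by name. Among probe sets with exactly 1 gene, no HSP, HSC70 or other gene excluded by name reached them (0). An HSP gene among the 24 without a gene would be missed by this count, so nothing is read from it. In replicate 2 the response was at least log2 1.5 in both lines in 14 of 14, 12 of 12 and 22 of 24 of these sets. Their median replicate 2 response was 3.61 in Ws and 4.15 in QK for the organelle genes, 3.06 and 3.65 for the probe sets with several genes, and 3.19 and 2.92 for those without a gene.

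At the edge of the rule, AT1G72800 (log2 1.501 in Col-0) and AT4G27652 (1.53 in Col-0) lay just inside in replicate 1. Just outside lay AT2G07728 (1.44 in Ws) and AT2G07695 (1.401 in Ws), both in the chromosome 2 stretch. A limit of 1 would have given 28 genes and a limit of 2 would have given 8, of which 7 are chromosome 2 loci and 1 is AT4G27657.

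Other stress pathways were compared through 7 lists of regulators and effectors with 84 genes. Only 11 of these had a single-gene probe set, and 0 were members. In the replicate 2 test of the common heat effect limma called 0 of the 11, against 0.205% of all probe sets called higher. ERDJ3B, a J-domain co-chaperone of the endoplasmic reticulum, and CRT1B, a calreticulin, were the 2 called higher in QK than in Ws after heat (log2 1.41, adjusted p = 0.0389, and 2.41, adjusted p = 0.0408), against 4.66% of all probe sets called in either direction. In replicate 2 they responded by 2.21 and 2.44 in QK and by 0.53 and 0.24 in Ws. The median response of the 6 genes of the unfolded protein response was 0.22 in Ws and 0.67 in QK there, and that of the 3 early stress factors 0.06 and -0.53. These 3 went different ways in replicate 2. ZAT10 went from 92.6 to 792.8 in Ws and from 1140.1 to 487.7 in QK, WRKY53 from 13.4 to 14.7 in Ws and from 65.8 to 288.3 in QK, and WRKY6 from 56.7 to 31.4 in Ws and from 107.7 to 69.9 in QK. The lists of heat-stress regulators, oxidative stress and splicing had 0 measured genes.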

How the data were processed

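Each probe set has 1 signal intensity per array, as deposited by the authors, on a linear scale. GCOS 1.4 is named per the submitters' processing notes, while the summary algorithm, scaling and genome build are not given in the sources used here. Medians were alike, so no normalization was added. Gene names come from the platform annotation, and gene order from the RefSeq table of assembly TAIR10.1.

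The scale was log2(signal + 16). Testing was limited to the 13631 probe sets that exceeded the 35th percentile on 2 or more arrays, and all 16 members did. Heat arrays alone can meet this filter, so the choice on replicate 1 bears on the members' pass, and nothing is read from it. Limma 3.58.1 (R 4.3.3, moderated variances with a mean trend) was fitted to the 8 Ws and QK arrays (4 residual degrees of freedom) or to the 4 replicate 2 arrays. The members, lists, tests and the rule for named genes (the extremes of response and of difference, every call, and the edge of the limit, here all 16) were chosen with earlier results of these data known.

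The fits were tested on simulated data and recovered the sizes put in. Whether the replicate 2 test called them depended on the simulated spread. With the spread left after group alone, which includes the shift between replicate numbers, it called none of them, and with that shift taken out it called most. The second spread was adopted after the first result was seen, and both are kept. Noise was simulated separately for each array, whereas in the data the shift between replicate numbers was correlated across groups, as given below. The simulation therefore does not settle how often the replicate 2 test calls a true change in these data.

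Replicate numbers were checked for pairing: the change from replicate 1 to 2 correlated by 0.587 to 0.807 in the 6 pairs of Ws and QK groups. With the Col-0 groups, whose replicate 2 pair goes against its labels, it was lower, down to -0.17 between Col-0 control and heat. Fits with the replicate block are therefore given beside the main ones. Other alternatives were pseudocounts, normalizations, filters, no trend, fold limits, Col-0 arrays and leaving out arrays. Promoter motifs were not analysed here.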

Additional observations from a re-analysis of the deposited data

Results flagged for a closer look

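The pair of arrays labelled Col-0 replicate 2 entered no main test. In it 16 of 16 members were brighter in the array labelled control than in the array labelled heat, against 45.9% of the probe sets tested. The array labelled control lay above every other control array for 16 of 16 members, and the array labelled heat lay below every other heat array for 16 of 16. The choice on replicate 1 fixes part of these last counts. Their share over all probe sets was not computed, and nothing is read from them.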

How the results depend on the processing

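Of the replicate 2 test, 6 members were called. The count was 10 with pseudocount 1 and 0 with pseudocount 64, with centring on the 75th percentile and with the pair labelled Col-0 replicate 2. In the other settings it was 4 to 6, without AT1G72800 and AT2G07678 under no filter or a 50th percentile filter, and the estimates stayed above 0 in 160 of 160 values for single members. No array could be left out of that test, which would leave no residual degree of freedom. In the QK minus Ws tests 0 members were called with the replicate block, with 12 arrays and with 10 arrays. Leaving out 1 array gave 0 to 1 member for the response, at control and at heat, each time AT4G27657. Without a fold threshold 1 member, AT2G07749, was called at heat. The sign of small uncalled differences changed in 10, 13 and 8 of 320 values each. The number of members was 28 with a limit of 1, 8 with a limit of 2 and 7 with pseudocount 64, and 16 to 24 otherwise. Their median replicate 2 response was 3.47 in Ws and 3.60 in QK with pseudocount 1, and 1.86 and 1.92 with pseudocount 64. Over all probe sets, calls ranged from 0 to 370 for the response (183 in the main setting), 0 to 106 at control (25), 219 to 980 at heat (635) and 0 to 91 in replicate 2 (29). The replicate block gave 370, 106 and 980. The dim control signals of several chromosome 2 loci limit how well the size of their change is known.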

Other observations

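AT2G07777, just before the stretch of mitochondrial copies on chromosome 2 and no member, was bright in some Col-0 arrays and dim in Ws and QK. Its signal was 20.8 at control and 196.0 at heat in Col-0 replicate 1, and 261.0 (control) and 13.3 (heat) in the pair labelled replicate 2. Heated Ws had 9.0 and 10.5, and heated QK 7.9 and 9.6. The Ws and QK control arrays had 12.4, 12.9, 11.5 and 9.6. Probe sequences were not used here, and a sequence difference between accessions was not tested.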
